A study of Rattus norvegicus with 10 samples.

Results

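The sites described here are SOX9 peaks that overlapped both a SOX6 peak and an H3K4me3 peak by at least 1 bp. They were chosen by the called peaks of these 3 libraries. Of 14782 SOX9 peaks, 3645 met this rule, which is 24.7%. They made up 43.8% of the 8329 SOX9 peaks shared with SOX6 and 62.0% of the 5876 SOX9 peaks with H3K4me3. The data come from chromatin immunoprecipitation with sequencing (ChIP-seq) in RCS cells, a line grown from a rat chondrosarcoma, a cartilage tumour. There was 1 library for each of 6 antibodies, against SOX9, SOX6, H3K4me3, H3K27ac, H3K4me1 and H3K9me3, and 4 input libraries made without an antibody. All libraries came from the same cell line, with no treatment named in the labels.

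Chondrocytes depend on SOX9, a transcription factor, to take on and keep their identity. SOX6 is a related SoxD factor that has no transactivation domain of its own and acts together with SOX9 on cartilage genes. H3K4me3 is a histone mark laid down mainly around active transcription start sites, where H3K4me1 is usually low in the middle and higher at the flanks. At enhancers the order is commonly the other way, with broad H3K4me1 and little H3K4me3. H3K27ac marks promoters and enhancers in use, and H3K9me3 marks heterochromatin. Rat gene models of the build used for the peaks (rn5) were not used here, so no site was assigned to a gene and none is called a promoter or an enhancer.

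Because each antibody was used for 1 library, replicate error cannot be given and no test was made. Intervals in the text are 95% Wilson intervals for shares and 95% Newcombe intervals for differences between shares. They cover counting error only, and neighbouring sites are not independent. The overlaps with SOX6 and with H3K4me3 chose the sites, so the scores and widths of the SOX9, SOX6 and H3K4me3 peaks are given as descriptions. H3K27ac, H3K4me1 and H3K9me3 were not used to choose them. For comparison serve 2231 SOX9 peaks with H3K4me3 but no SOX6 peak (SOX9-only sites with H3K4me3), and 4684 SOX9 peaks with SOX6 but no H3K4me3 (shared sites without H3K4me3).

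The shared sites with H3K4me3 divided by the kind of H3K4me3 interval they met. Most lay on low-scoring intervals, narrower than those of the highest score, with H3K27ac and H3K4me1 at most centres. A smaller group lay on wide H3K4me3 intervals of the highest score. There H3K27ac was at nearly every centre and H3K4me1 at fewer than on the low-scoring intervals. SOX9-only sites with H3K4me3 also had H3K4me1 less often on the highest-scoring intervals. Each peak carries a score that the authors deposited, whose scale the sources used here do not give. Of the 23116 H3K4me3 intervals, 42.5% had a score of 3100 or more, nearly all of them exactly 3100. These are called the 3100 class below. Intervals at or below the median score of 1674 form the lower class and make up 50% of the list, and the 1725 between these are the upper class.

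By the interval that each site overlapped most, 2169 of the 3645 shared sites with H3K4me3 lay on the lower class, or 59.5% (57.9% to 61.1%). The 3100 class held 1254 sites, or 34.4% (32.9% to 36.0%), and the upper class held 222. SOX9-only sites with H3K4me3 were distributed the other way, with 30.8% (29.0% to 32.8%) on the lower class and 63.7% (61.7% to 65.7%) on the 3100 class. SOX9 peaks that also had a SOX6 peak thus met low-scoring H3K4me3 intervals more often than those that did not.

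SOX9 score differed between these sets, with a median of 151 at shared sites with H3K4me3 and 70.1 at SOX9-only sites with H3K4me3, so the classes were also compared within quintiles of the SOX9 score. From the lowest to the highest quintile, the share on the lower class was 39.5%, 47.3%, 45.9%, 60.04% and 75.2% at shared sites with H3K4me3. At SOX9-only sites with H3K4me3 it was 26.98%, 26.0%, 29.1%, 43.5% and 65.8%. In the lower 4 quintiles the difference ran from 12.5 (5.76 to 19.3) to 21.3 (15.6 to 26.8) percentage points. These values are descriptions, because the SOX6 and H3K4me3 lists chose the sites. In the highest quintile it was 9.44 points (-0.71 to 21.1), with only 73 SOX9-only sites there. In both sets, then, higher-scoring SOX9 peaks were found more often on low-scoring H3K4me3 intervals.

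**Figure D1:**
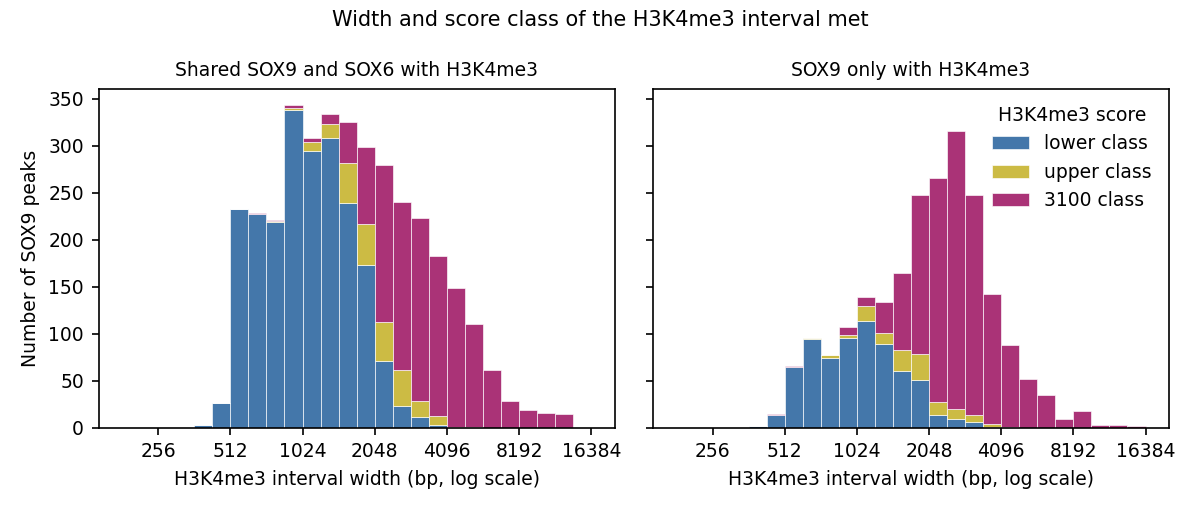
Number of SOX9 peaks (vertical axis) by the width of the H3K4me3 interval they overlapped most (horizontal axis, log scale), stacked by the score class of that interval, for shared sites with H3K4me3 (left) and SOX9-only sites with H3K4me3 (right). The shared sites spread over narrow intervals of the lower class and wide intervals of the 3100 class, with median widths of 1053 bp and 3247 bp, and the SOX9-only sites gather on intervals of the 3100 class.

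The intervals met by shared sites had a median width of 1535 bp per site (quartiles 955 and 2662 bp), against 2145 bp (1318 and 2968.5 bp) at SOX9-only sites with H3K4me3. Width followed the score class. Shared sites on the lower class lay on intervals with a median of 1053 bp (quartiles 754 and 1428 bp), those on the upper class 2026.5 bp, and those on the 3100 class 3247 bp (2437 and 4498 bp). Over all 23116 intervals, width and score had a rank correlation of 0.867.

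SOX9 scores were lower on higher-scoring H3K4me3 intervals, while SOX6 scores were lowest on the 3100 class but did not fall in order over the classes. The median SOX9 score was 210 (quartiles 101 and 455) at sites on the lower class, 156 on the upper class and 103 (70.4 and 183) on the 3100 class. For the best SOX6 peak at the same sites the medians were 246, 270 and 163. SOX9 peak width hardly followed, with medians of 775, 837.5 and 788 bp. Across the 3645 sites the rank correlation of the SOX9 score was -0.27 with the H3K4me3 score and 0.513 with the SOX6 score, and that of the SOX6 score with the H3K4me3 score was -0.17. These are correlations across sites within the same libraries and describe only them.

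Counted by interval, 3412 H3K4me3 intervals held a shared site, which is 14.8% of the list. They were 18.4% (17.7% to 19.1%) of the lower class and 11.1% (10.5% to 11.7%) of the 3100 class, although intervals of the 3100 class are wider. Per 10 kb of H3K4me3 sequence there were 1.69 shared centres in the lower class, 0.734 in the upper class and 0.483 in the 3100 class. By width, shared sites were present in 3.15% of intervals under 500 bp and 15.8% of those from 500 to 1000 bp. The share was 14.8% from 1000 to 2000 bp, 10.7% from 2000 to 3000 bp, 17.6% from 3000 to 4000 bp and 40.7% at 4000 bp or more. The median width was 1454.5 bp for intervals with a shared site and 1399 bp for those without any SOX peak. Within a class the intervals with a shared site were also the wider, with medians of 1021 against 850 bp in the lower class and 3088 against 2247 bp in the 3100 class. A wide interval has more room to be overlapped, and this was not corrected for.

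Most intervals held a single site, 3143 of 3412, while 239 held 2, 27 held 3 and 3 held 5. The sites together met 3797 SOX6 peaks, and 193 sites met more than 1 of them. Few SOX9 peaks reached across a break in the mark: 72 met 2 H3K4me3 intervals, with a median gap of 108 bp between these (range 3 to 1095 bp). The bridging peaks had a median SOX9 score of 699, and in 54 of them the centre was inside one of the intervals. Lower-class intervals with a shared site mostly lay far from any interval of the 3100 class. The gap from a lower-class interval with a shared site to the nearest such interval had a median of 52905 bp, and 10.2% (9.0% to 11.6%) were within 5000 bp of one. For lower-class intervals without any SOX peak these values were 59974 bp and 12% (11.3% to 12.7%).

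The SOX9 centre lay inside the H3K4me3 interval at 3346 of 3645 sites, or 91.8% (90.9% to 92.6%). At SOX9-only sites with H3K4me3 the share was 96.7% (95.9% to 97.4%), a difference of -4.93 points (-6.08 to -3.75). Within quintiles of the SOX9 score it was smaller, at -0.317, -2.10, -2.94, -0.766 and -0.332 points from lowest to highest. Only in the middle quintile were both ends of the interval negative (-4.87 to -1.08). By class it was -3.63 points (-6.01 to -0.945) on the lower and -1.12 points (-4.85 to 3.76) on the upper class. On the 3100 class it was -1.13 points (-2.09 to -0.286). The centre of the best SOX6 peak was inside at 91.2% of shared sites, and both centres were inside at 89.1%. The SOX9 and SOX6 centres of a site were 74 bp apart at the median (quartiles 25 and 163 bp), against 44 bp (14 and 92 bp) at shared sites without H3K4me3, where the SOX9 peaks were narrower (571 bp against 781 bp). At 58.6% of sites the whole SOX9 peak was contained in the H3K4me3 interval, at 35.3% it crossed 1 edge, and at 6.15% it spanned an entire interval.

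Measured to the nearest edge of the interval overlapped most, centres inside lay at a median depth of 502 bp (quartiles 283 and 833 bp), against 642 bp (377 and 1014 bp) at SOX9-only sites with H3K4me3. The depth in bp, which the width of the interval limits, had medians of 343 bp in the lower, 647 bp in the upper and 927 bp in the 3100 class. Relative to the width of the interval, centres were found more often near the middle than near the edges. When each interval was divided into 5 equal steps from edge to middle, the steps held 7.68%, 15.1%, 20.1%, 25.9% and 31.2% of the 3345 centres inside it. The innermost step held 33.5% (31.4% to 35.7%) in the lower class and 26.97% (24.6% to 29.5%) in the 3100 class. At SOX9-only sites with H3K4me3 the innermost step held 31.2% and the outermost 5.19% (4.33% to 6.21%), against 7.68% (6.83% to 8.63%) in the outermost step at shared sites. The width of the SOX9 peak relative to the interval was not corrected for.

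**Figure D2:**
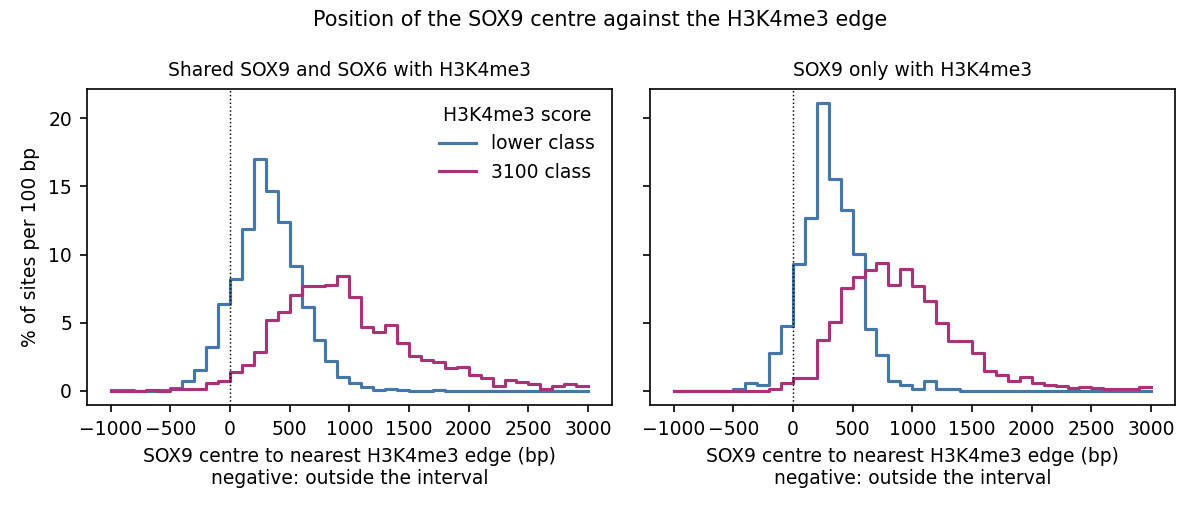
Share of sites per 100 bp (vertical axis) by the distance from the SOX9 centre to the nearest edge of the H3K4me3 interval (horizontal axis, bp, negative outside the interval), for shared sites with H3K4me3 (left) and SOX9-only sites with H3K4me3 (right), each split into the lower and the 3100 score class. Shared centres inside the interval lie at a median depth of 343 bp in the lower class and 927 bp in the 3100 class.

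At 299 shared sites the SOX9 centre fell outside every H3K4me3 interval, most often by little (median 100 bp to the edge, quartiles 55 and 191.5 bp). These sites had high SOX9 scores, with a median of 316 (quartiles 128 and 783) against 144 (79.99 and 323) where the centre was inside. Their H3K4me3 intervals were narrow and low-scoring, with a median width of 833 bp and a median score of 113, against 1626.5 bp and 922 where the centre was inside. By quintile of the SOX9 score the centre was inside at 96.3%, 95.2%, 95.6%, 94.1% and 86.0% of shared sites. SOX9 peaks widen with the score, from a median of 505 bp in the lowest to 1006.5 bp in the highest quintile. With SOX9 peaks narrowed to 400 bp, the shares in the lowest and highest quintiles were 97.03% and 88.8% (86.9% to 90.4%). Narrowing by quintile was added with the data in view. In 25 of the 299 cases another H3K4me3 interval lay within 1 kb on both sides of the centre.

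H3K27ac was nearly always present. It overlapped 3592 of the 3645 shared sites with H3K4me3, or 98.5% (98.1% to 98.9%), against 80.2% of all SOX9 peaks. The share was 96.997% (96.2% to 97.6%) at SOX9-only sites with H3K4me3 and 89.7% (88.8% to 90.5%) at shared sites without H3K4me3. Against the SOX9-only sites the difference was 1.55 points (0.78 to 2.41), and within quintiles of SOX9 score it ranged from -0.39 to 2.0 points with every interval including 0. By class of the H3K4me3 interval it was 5.10 points (3.25 to 7.35) on the lower, 3.68 points (0.56 to 8.87) on the upper and 0.445 points (-0.20 to 1.11) on the 3100 class. Against shared sites without H3K4me3 the difference was 8.84 points (7.89 to 9.80). It was 25.2 points (20.1 to 30.3) in the lowest quintile and 3.04 points (2.08 to 4.10) in the highest, so the contrast was mainly among low-scoring SOX9 peaks.

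An H3K27ac peak with a score of 3100 or more was met by 76.8% (75.4% to 78.1%) of shared sites with H3K4me3. The share was 62.9% (60.9% to 64.9%) at SOX9-only sites with H3K4me3 and 38.3% (36.9% to 39.7%) at shared sites without H3K4me3. At SOX9 peaks with neither SOX6 nor H3K4me3 it was 12.2% (11.3% to 13.2%). In the whole H3K27ac list, 18.9% of peaks had such a score, which is a share of H3K27ac peaks and not of SOX9 sites. The measure is by overlap, and SOX9 peak width, with medians of 781, 546 and 571 bp in the first 3 sets, was not corrected for. On H3K4me3 intervals of the lower class, 69.2% (67.2% to 71.1%) of shared sites met an H3K27ac peak with a score of 3100 or more, against 42.9% (39.2% to 46.6%) of SOX9-only sites. In the 3100 class these shares were 88.9% (87.1% to 90.5%) and 74.3% (71.9% to 76.5%). In the lower class the share rose with the SOX9 score in both sets, and in the highest quintile it was 84.8% at shared and 87.5% at SOX9-only sites, the second over 48 sites. The base at the SOX9 centre was inside an H3K27ac peak at 97.9% of shared sites, against 78.8% of all SOX9 peaks.

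H3K4me1 also differed between the sets. It covered the SOX9 centre at 2295 of 3645 shared sites with H3K4me3, or 63.0% (61.4% to 64.5%), where all SOX9 peaks gave 65.2%. At SOX9-only sites with H3K4me3 the share was 39.1% (37.1% to 41.2%), and at shared sites without H3K4me3 it was 89.5% (88.6% to 90.4%). Shared sites with H3K4me3 thus lay between these sets, 23.8 points (21.3 to 26.4) above the first and 26.6 points (difference -26.6, -28.3 to -24.8) below the second. The base at the centre was used here because it does not depend on peak width. By overlap of the whole peak, 81.9% of shared sites with H3K4me3 met H3K4me1, against 74.8% of all SOX9 peaks.

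The share with H3K4me1 at the centre was 78.2% (76.4% to 79.9%) at shared sites on lower-class intervals, 61.3% on the upper class and 36.9% (34.3% to 39.6%) on the 3100 class. The lower class exceeded the 3100 class by 41.3 points (38.0 to 44.4). This split was not particular to shared sites. SOX9-only sites with H3K4me3 had H3K4me1 at the centre of 71.5% (68.0% to 74.8%) on the lower class and 22.9% (20.8% to 25.2%) on the 3100 class. At shared sites the lower class was above the 3100 class in every quintile of the SOX9 score, but the gap was smaller in the highest. From the lowest to the highest quintile the shares were 81.3%, 81.3%, 80.3%, 82.3% and 74.1% on the lower class. On the 3100 class they were 37.4%, 35.8%, 31.3%, 37.6% and 45.1%. The split was also present among intervals of similar width. Among those of 1000 to 2000 bp, H3K4me1 was at the centre of 77.1% (74.5% to 79.5%) of 1056 shared sites in the lower class and 35.3% (27.7% to 43.8%) of 133 in the 3100 class, and from 2000 to 3000 bp the shares were 67.8% and 30.4%.

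Within each class, shared sites had H3K4me1 at the centre more often than SOX9-only sites. The difference was 6.68 points (2.98 to 10.6) in the lower class, 15.8 points (4.78 to 26.4) in the upper class and 14 points (10.5 to 17.4) in the 3100 class. The pooled difference of 23.8 points therefore included the unequal mix of classes. Within quintiles of the SOX9 score it was 16.4 to 24.0 points in the lower 4 quintiles and 3.68 points (-6.66 to 15.4) in the highest.

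**Figure D3:**
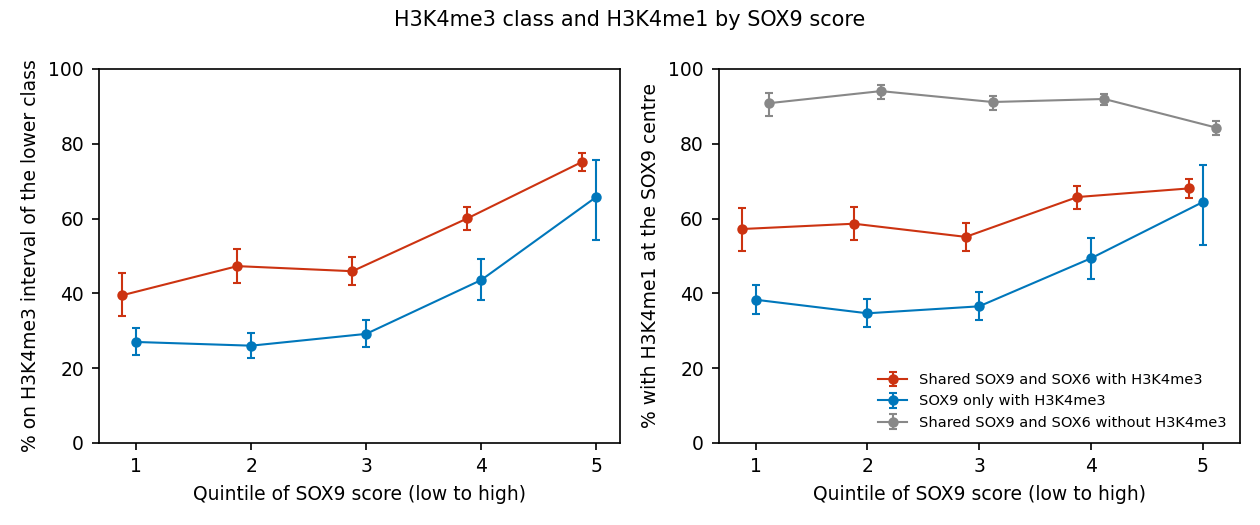
Share of sites on an H3K4me3 interval of the lower score class (left) and share with an H3K4me1 peak over the SOX9 centre (right), by quintile of the SOX9 score from low to high. Points are shares with 95% Wilson intervals. Shared sites with H3K4me3 exceed SOX9-only sites in each panel, with intervals that overlap in the highest quintile, and lie below shared sites without H3K4me3 for H3K4me1.

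The marks around the centre showed the same division. At shared sites on the lower class, H3K4me3 covered 87.6% of centres and 17.6% and 19.2% of the positions 1 kb before and after it on the chromosome. H3K4me1 formed a plateau there, with 79.8%, 78.2% and 79.99% at -500, 0 and 500 bp, and H3K27ac covered 97.05% of centres. On the 3100 class, H3K4me1 dipped at the centre, with 52.4%, 36.9% and 51.2% at -1000, 0 and 1000 bp, while H3K4me3 still covered 37.7% and 36.7% of positions 2 kb away. H3K27ac was nearly equal in both, at 43.3% and 45.3% of positions 2 kb to either side in the lower class and 49.2% and 47.7% in the 3100 class. Shared sites without H3K4me3 had a single peak of H3K4me1, with 89.5% at the centre and 62.6% at 1 kb on each side.

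**Figure D4:**
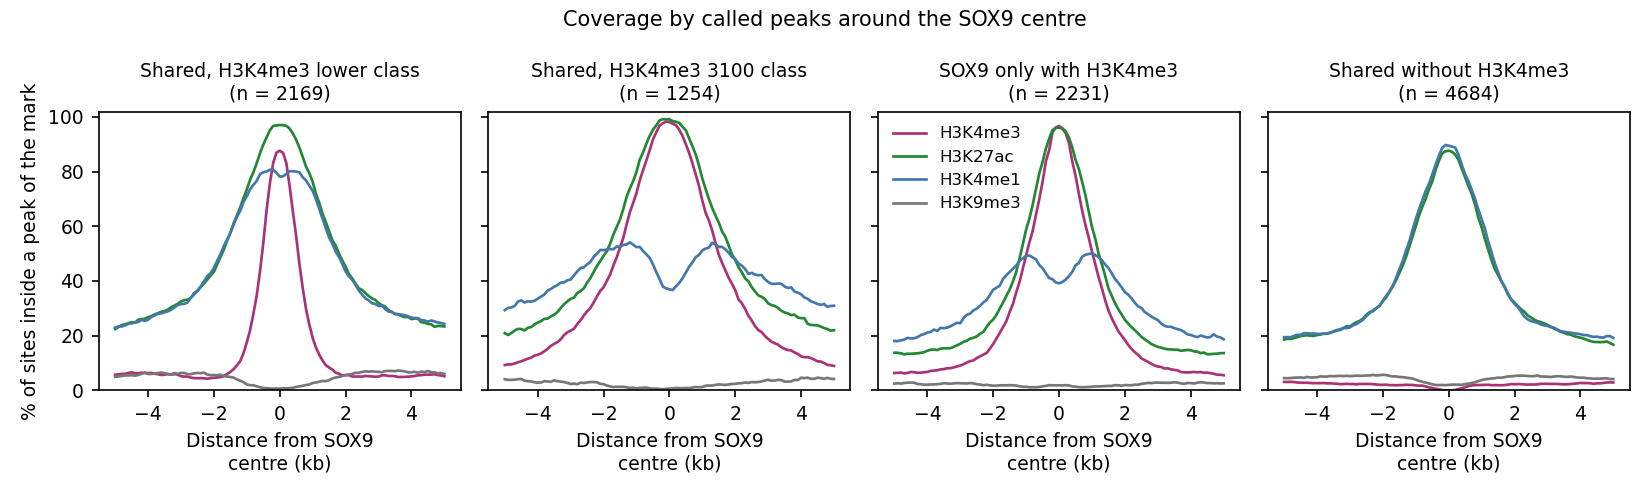
Share of sites at which a called peak of each mark covers the position (vertical axis) by distance from the SOX9 centre (horizontal axis, kb), for shared sites on lower-class and on 3100-class H3K4me3 intervals, SOX9-only sites with H3K4me3 and shared sites without H3K4me3. H3K4me1 covers 78.2% of centres in the first panel and dips to 36.9% in the second.

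By the combination at the centre, 61.6% of shared sites with H3K4me3 had H3K27ac and H3K4me1, 36.2% had H3K27ac without H3K4me1, 1.32% had H3K4me1 without H3K27ac and 0.823% had neither. At SOX9-only sites with H3K4me3 the first combination held 37.3% and the second 58.8%. At shared sites without H3K4me3 they held 79.4% and 8.28%, so shared sites with H3K4me3 lay between these sets. Among the latter, the first combination held 76.2% of sites on the lower class and 36.6% of those on the 3100 class. The second held 20.8% and 62.6%. Some centres without H3K4me1 lay between H3K4me1 peaks. At 522 shared sites, 14.3% (13.2% to 15.5%), the centre was outside H3K4me1 with an H3K4me1 peak within 1 kb on both sides. This share was 18.1% (16.6% to 19.8%) at SOX9-only sites with H3K4me3 and 4.74% (4.17% to 5.39%) at shared sites without H3K4me3. On the lower class it was 12.6% (11.3% to 14.1%) and on the 3100 class 16.6% (14.6% to 18.7%) of shared sites with H3K4me3. It was 9.96% in the lowest and 19.1% (17.1% to 21.4%) in the highest quintile at shared sites with H3K4me3. These shares are over all sites of a set or class, including centres with H3K4me1. The lower class had more such gaps (274 against 208) though H3K4me1 was at 1696 of its 2169 centres, against 463 of 1254. Over centres without H3K4me1 alone its share is thus the higher. The order of the sets also changes over those centres, and shared sites without H3K4me3 have the highest share. They had 222 gaps, with H3K4me1 at 4193 of 4684 centres.

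H3K4me3 intervals of the lower class that held a shared site carried other active marks more often than those without any SOX peak. H3K27ac was met by 97.9% (97.2% to 98.4%) of 2124 intervals with a shared site and 62.2% (61.1% to 63.3%) of 7785 intervals without a SOX peak. H3K4me1 was met by 94.1% and 59.6%, a difference of 34.5 points (33.0 to 36.0). Intervals with a peak of only one of the factors also carried the marks often. Lower-class intervals with a SOX9 but no SOX6 peak met H3K27ac at 91.8% and H3K4me1 at 86.5%, and those with a SOX6 but no SOX9 peak at 84.995% and 84.5%. Among lower-class intervals of 500 to 1000 bp, H3K27ac was met by 96.8% of those with a shared site and 57.3% of those without any SOX peak. For H3K4me1 these shares were 91.7% and 60.3%. In the 3100 class the contrast was small, at 100% and 99.1% for H3K27ac and 95.1% and 88.6% for H3K4me1. By length, H3K4me1 covered 83.1% of lower-class intervals with a shared site against 47.4% of those without a SOX peak, and 50.3% against 44.3% in the 3100 class.

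H3K9me3 was rare at the shared sites with H3K4me3. It overlapped 68 of 3645, or 1.87% (1.47% to 2.36%), where all SOX9 peaks gave 3.31%, and it was at the centre of 0.604%, where all SOX9 peaks gave 2.29%. Shared sites without H3K4me3 met it at 3.35% (2.87% to 3.91%), a difference of -1.49 points (-2.17 to -0.80), and SOX9-only sites with H3K4me3 at 2.20% (1.67% to 2.89%), a difference of -0.33 points (-1.13 to 0.39). At the centre, which does not depend on peak width, SOX9-only sites with H3K4me3 had it at 1.84% (1.36% to 2.48%), and the difference was -1.23 points (-1.91 to -0.66). The centres of shared sites without H3K4me3 had it at 1.99%, a difference of -1.38 points (-1.87 to -0.91). Without chromosomes 7, 9, 11 and 16 the overlap at shared sites with H3K4me3 was 1.07%. The comparison sets are not given without these chromosomes, and their part in the differences was not tested. The 5 shared sites with H3K9me3 that had the highest SOX9 scores had H3K27ac and H3K4me1 at the centre, while H3K9me3 overlapped the SOX9 peak but not its centre. They lay on chromosome 7 from 73310271 to 73311655 (rn5), on chromosome 10 from 100760971 to 100762931, and on chromosome 9 from 44756623 to 44759312, 29226453 to 29227506 and 44619407 to 44623040. Their SOX9 scores were 1551, 1428, 1175, 1098 and 895.

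The 10 shared sites with the highest SOX9 scores all lay on lower-class H3K4me3 intervals, as did 75.2% of shared sites in the highest quintile. All 10 had H3K27ac at the centre and met H3K4me1, but only 5 had the centre inside H3K4me3, and the same 5 had H3K4me1 at the centre. Of the 16 SOX9 peaks with a score of 3100, 8 belonged to the shared sites with H3K4me3 and take the first 8 places, ordered by SOX6 score. In the whole highest quintile of the SOX9 score, 1290 of 2957 SOX9 peaks belonged to the shared sites with H3K4me3.

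The site on chromosome 7 from 99628423 to 99630502 was 2080 bp wide, had a SOX6 score of 3100 and had its centre 415 bp inside an H3K4me3 interval of 1569 bp with a score of 438. On chromosome 4 from 226072307 to 226073635, also with a SOX6 score of 3100, the centre lay 25 bp inside an interval of 1158 bp scored 183. Sites with the centre inside the mark were also found on chromosome 19 from 50312731 to 50314967 (interval of 2319 bp, score 989), chromosome 4 from 29968317 to 29969869 (885 bp, score 188.5) and chromosome 16 from 85598708 to 85600678 (2212 bp, score 1616).

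At the other five the SOX9 centre lay just beside the H3K4me3 interval. The site on chromosome 9 from 43853063 to 43854023 had a SOX6 peak centred 3 bp away, scored 2845, and its centre was 75 bp outside an H3K4me3 interval of 535 bp. On chromosome 2 from 265718522 to 265719618 the centre was 89 bp outside an interval of 856 bp, and on chromosome 1 from 222494745 to 222495930 it was 306 bp outside one of 607 bp. The remaining sites lay on chromosome 4, from 62591221 to 62592318 with the centre 2 bp outside an interval of 644 bp, and from 245478705 to 245479789 with the centre 139 bp outside one of 1345 bp. In 4 of these 5, all but the last, the centre lay in a gap between H3K4me1 peaks within 1 kb on both sides.

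The 5 widest H3K4me3 intervals with a shared site held sites with SOX9 scores from 73.4 to 1033. All 5 intervals had an H3K4me3 score of 3100 and were covered by H3K27ac over 99.9% to 100% of their length. The widest lay on chromosome 7 from 126265907 to 126279054 (13148 bp) and held 2 shared sites with SOX9 scores of 79.7 and 169. Next came chromosome 18 from 79979816 to 79992764 with 1 site (score 85.0), and chromosome 7 from 44786614 to 44799495 with 5 sites (scores 124 to 279) and 9 SOX6 peaks. The interval on chromosome 3 from 167059414 to 167072277 held 3 sites, 1 of them scored 1033, and that on chromosome 6 from 79529713 to 79542216 held 1, scored 73.4. H3K4me1 covered 21.2%, 42.7%, 60.7%, 76.1% and 30.2% of these 5 intervals.

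Besides the interval on chromosome 7, intervals with 5 shared sites lay on chromosome 4 from 242633133 to 242643338 (10206 bp) and chromosome 3 from 120851634 to 120855570 (3937 bp). Their SOX9 scores ran from 88.1 to 237 and from 73.1 to 214. The interval on chromosome 3 with 3 sites, named above, came next by count and width. After it, the interval on chromosome 12 from 15830517 to 15841942 held 3 sites with scores up to 2393, and H3K4me1 covered 15.4% of it.

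Near the limit of the rule, the smallest overlaps with H3K4me3 were 7, 7 and 9 bp, at SOX9 peaks scored 54.6, 51.9 and 125. The shared SOX9 peaks closest to H3K4me3 without touching it had gaps of 6, 7 and 8 bp and scores of 55.9, 89.8 and 111. Few peaks were so close. Of shared sites without H3K4me3, 3.44% (2.95% to 4.0%) lay within 500 bp of an H3K4me3 interval, and the median gap was 25253 bp.

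The share of shared SOX9 peaks with H3K4me3 was uneven over the chromosomes and was higher where the inputs were. It was 55.8% (52.0% to 59.5%) on chromosome 7, 51.4% on chromosome 9 and 50.3% on chromosome 16, where the inputs held 1.91, 2.03 and 2.05 times the reads per Mb of the median chromosome. Chromosome 11, at 1.63 times, had 41.9%, chromosome 12, at 0.994 times, had 52.7%, and X, at 0.595 times, had 30.2% (21.5% to 40.6%). Over the 21 chromosomes Pearson's r was 0.689 and Spearman's rho 0.664, as a description. On the 4 chromosomes with most input, 7, 9, 11 and 16, together 51.1% (48.9% to 53.4%) of shared SOX9 peaks had H3K4me3, against 41.7% (40.5% to 42.9%) on the other 17. The part of the input in this difference was not tested.

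H3K4me1 moved with these chromosomes as well. At shared sites on lower-class intervals it was at the centre of 93.1% on chromosomes 7, 9, 11 and 16 and 73.5% on the other 17, and in the 3100 class of 45.0% and 33.7%. On the other 17 chromosomes alone the lower class exceeded the 3100 class by 39.8 points (36.0 to 43.5), close to the 41.3 points of all chromosomes.

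**Figure D5:**
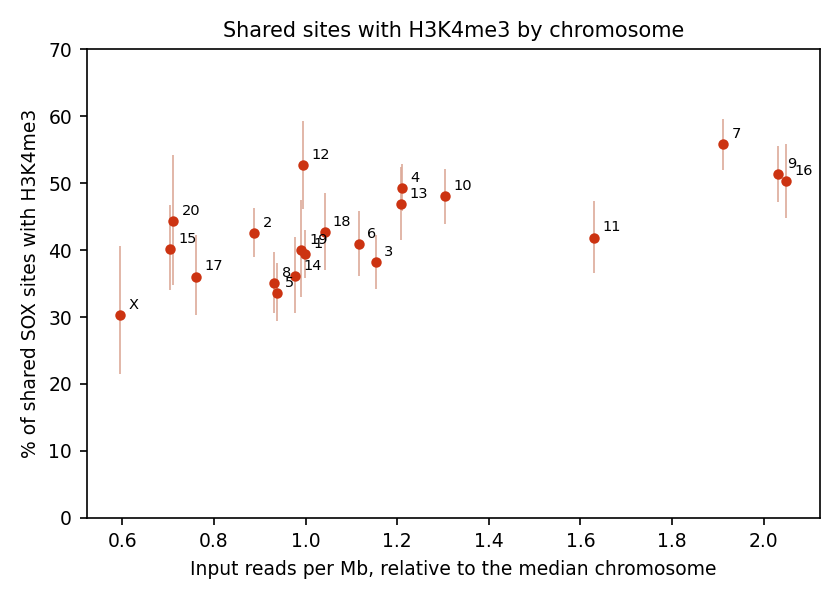
Share of SOX9 peaks shared with SOX6 that also met H3K4me3 (vertical axis, with 95% Wilson intervals) by input reads per Mb relative to the median chromosome, averaged over the 4 inputs (horizontal axis). Each point is a chromosome. Chromosomes 7, 9 and 16 lie between 50.3% and 55.8%, and X at 30.2%.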

How the data were processed

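The 6 immunoprecipitated libraries came as 1 deposited peak list each, whose peak names carry the name of MACS. CASAVA 1.8 and rn5, the genome build, are named in the submitters' processing notes. Not given in the sources used here are the aligner, the peak calling settings and the depth of these libraries. The authors deposited a score for each peak, which was used only within its own list, to order and group peaks. The lists held 14782 SOX9, 19355 SOX6, 50834 H3K27ac, 92421 H3K4me1, 23116 H3K4me3 and 52431 H3K9me3 peaks. The inputs were deposited as raw read counts per chromosome, per the file headers, with 36873004 to 131858579 reads in a library, of which 53.4% to 53.5% aligned.

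Coordinates are printed counting from 1. Overlap meant 1 bp or more, the centre was the midpoint of a peak, and position was measured against the H3K4me3 interval with the largest overlap. Where several SOX6 peaks overlapped, the highest-scoring was taken. Input reads without a mismatch were divided by the last peak end on each chromosome and by the median chromosome, and averaged over the 4 inputs. Shares have Wilson and differences Newcombe intervals at 95%, covering counting error only. No p-value was computed, as each antibody has 1 library. The interval functions were tested on simulated data against exhaustive comparison. Python 3.11.15, pandas 2.3.3, NumPy 2.4.6, SciPy 1.17.1 and matplotlib 3.10.9 were used.

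The sites, the comparison sets and the score classes were chosen with earlier results of these data known. The regions named are the 10 shared sites with the highest SOX9 score (ties by SOX6 score, H3K4me3 width and coordinate), the 5 widest H3K4me3 intervals with a shared site, the 5 with most shared sites, the 3 sites on each side closest to the 1 bp limit, and the 5 highest-scoring sites with H3K9me3. Reference sequences of rn5 were not used here, so no sequence is printed.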

Additional observations from a re-analysis of the deposited data

How the results depend on the processing

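Each of 8 results was recomputed under 6 alternatives, which gave 46 values. Of these, 31 stayed within 1.5 times the count or inside the 95% interval of the value reported, 15 moved outside it, and none of the differences changed sign. Restricting every list to peaks above its median score left 686 shared sites with H3K4me3, by construction those on upper-class and 3100-class intervals. There the centre was inside H3K4me3 at 96.8%, the H3K27ac difference from SOX9-only sites was 0.641 points (-0.54 to 2.02) and the H3K4me1 difference from shared sites without H3K4me3 was -40.2 points. The median H3K4me3 width, counted by interval, was 2972.5 bp against 1454.5 bp for all peaks, and H3K9me3 was met by 1.46%. The 2 results on the lower class have no value under this restriction. With an overlap of at least 50% of the narrower interval, the centre was inside at 97.1% and H3K9me3 was met by 1.12%, and with SOX peaks narrowed to 400 bp these were 93.4% and 0.916%. Joining H3K4me3 peaks within 1 kb gave a median width by interval of 1650.5 bp and 57.0% of sites on the lower class. Counting 1 SOX9 peak per H3K4me3 interval gave 61.7% on the lower class. Without chromosomes 7, 9, 11 and 16 the H3K4me1 difference was -29.1 points and H3K9me3 was met by 1.07%. The cause of the last 2 was not tested. The 2 class results were added after seeing the data.

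No paired analysis was possible because each antibody has 1 library. The depth of the immunoprecipitated libraries is unknown, and the absence of SOX6 or of a mark means here that no peak was called.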
